A study of Mus musculus with 6 samples.

Results

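The genes examined here encode the nuclear-encoded subunits of the mitochondrial respiratory chain (complexes I to IV) and of ATP synthase (complex V), together with complex I assembly factors that share their naming. They were chosen by gene symbol (Nduf, Sdha to Sdhd, Uqcr, Cyc1, Cox4 to Cox8 and Atp5), and 88 genes with 136 array probes matched, of 19054 genes named on the array. A gene was tested through its brightest probe that was detected (detection p under 0.01) on 3 or more of the 6 arrays. This held for 80 of the 88 genes, among 9921 tested genes in all. These were 42 genes of complex I, 3 of complex II, 7 of complex III, 12 of complex IV and 16 of complex V. The study profiled messenger RNA of whole mouse kidneys at stage E18.5 on Illumina MouseWG-6 arrays. In each of 3 litters, kidneys of 2 FoxD1GC;Dicer fl/fl embryos formed 1 pool and kidneys of 2 Cre-negative control littermates another. In the FoxD1GC;Dicer fl/fl embryos (FoxD1;Dicer below) a fusion of eGFP and Cre is made from the endogenous FoxD1 locus in the renal stroma and removes the floxed part of Dicer, the enzyme that produces mature miRNAs, in those cells and their descendants. The FoxD1GC line and the Dicer fl/fl animals (C57BL/6J) were kept on different strain backgrounds, and the FoxD1GC allele itself is carried by the FoxD1;Dicer pools alone.

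The respiratory chain passes electrons from NADH (complex I) and succinate (complex II) through complex III to oxygen at complex IV, pumping protons across the inner mitochondrial membrane, and ATP synthase uses the proton gradient to make ATP. In the kidney the proximal tubule, which reabsorbs most of the filtrate, is rich in mitochondria and depends on this pathway. Several complex IV subunits exist as isoforms, some of them enriched in striated muscle, testis, lung or contractile vascular cells.

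The median raw intensity of the arrays was 100.3 to 107.6, and 35.7% to 37.7% of probes were detected. Dicer1 was read by 2 probes, with log2 changes of -0.28 ± 0.11 (SE, adjusted p = 0.24) and -0.63 ± 0.13 (adjusted p = 0.045), and neither probe was placed relative to the deleted part. The Y-linked transcripts Eif2s3y and Kdm5d were detected in both pools of litter 1, in neither pool of litter 3 and in the control pool alone of litter 2, so litter 2 sets a pool without male tissue against one with it. All 14 listed proximal tubule markers with a probe and all 15 of stroma, pericytes and mesangium were detected on at least 3 arrays, whereas 7 of 8 adrenal cortex markers and 7 of 9 brown fat markers were detected on no array.

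Transcripts of the respiratory chain and ATP synthase were slightly lower in FoxD1;Dicer kidneys as a group, and no single gene passed the threshold. The log2 change (FoxD1;Dicer minus control) was negative for 71 of the 80 genes, or 88.8%, against 47.9% of all tested genes. The median change was -0.13, and it was -0.12, -0.17 and -0.17 in litters 1, 2 and 3, against a median of 0.01 over all tested genes. The median normalized level over the 80 genes was 11.30, 11.28 and 11.31 log2 units in the FoxD1;Dicer pools of litters 1, 2 and 3, against 11.40, 11.44 and 11.43 in the control pools. All 3 FoxD1;Dicer medians thus lay below all 3 control medians.

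With limma and Benjamini-Hochberg adjustment over the tested probes at 0.05, 0 of the 80 genes were called lower and 0 higher, against 3.15% of tested genes called lower and 2.41% called higher. The smallest adjusted p was 0.094, for Cox7a1. At an unadjusted p under 0.05, 14 genes (17.5%) had a lower value in FoxD1;Dicer kidneys, against 10.2% of all tested genes, and 0 had a higher value, against 9.99%. In 46 genes (57.5%) the FoxD1;Dicer pool was the lower one in all 3 litters, against 21.0% of tested genes, and in 3 genes (3.75%) it was the higher one in all 3, against 23.2%. In 32 genes (40%) all 3 FoxD1;Dicer pools lay below all 3 control pools, against 12.1% of tested genes, and in 0 genes did they all lie above, against 13.8%. Of the 80 genes 60 lay in the uppermost of 4 equal groups of tested genes ranked by mean signal, and in that group the median change was 0.01 and 22.1% of genes were lower in all 3 litters. In whole kidneys, fewer cells of a type rich in these transcripts and fewer transcripts per cell cannot be told apart.

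**Figure D1:**
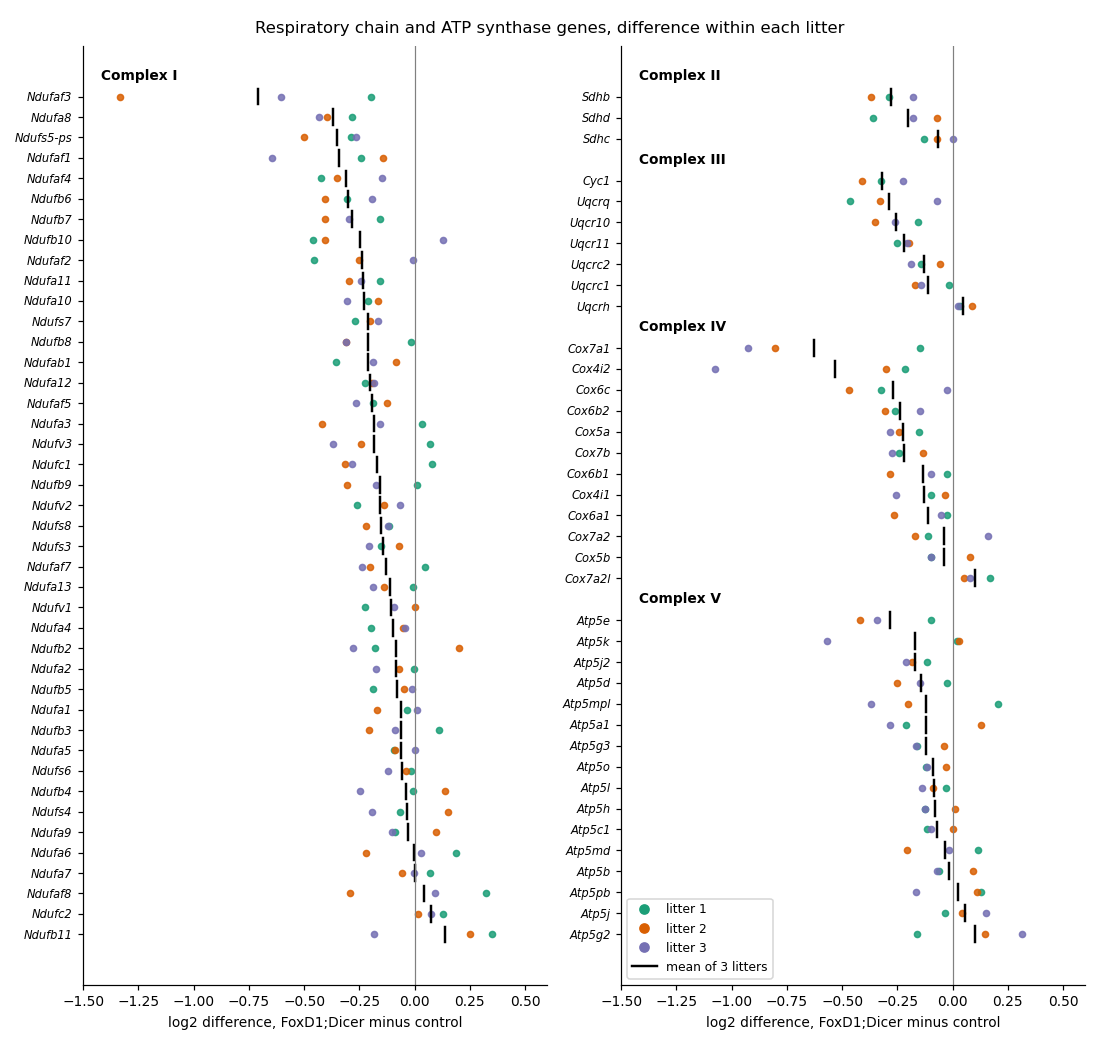
Log2 difference between the FoxD1;Dicer and the control pool of each litter (x axis, points coloured by litter) for the 80 tested genes, arranged by complex, with the mean of the 3 litters as a black bar. Most bars lie between -0.4 and 0, 71 of 80 are below 0, and Ndufaf3, Cox7a1 and Cox4i2 have the lowest means and the widest spread between litters.

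**Figure D2:**
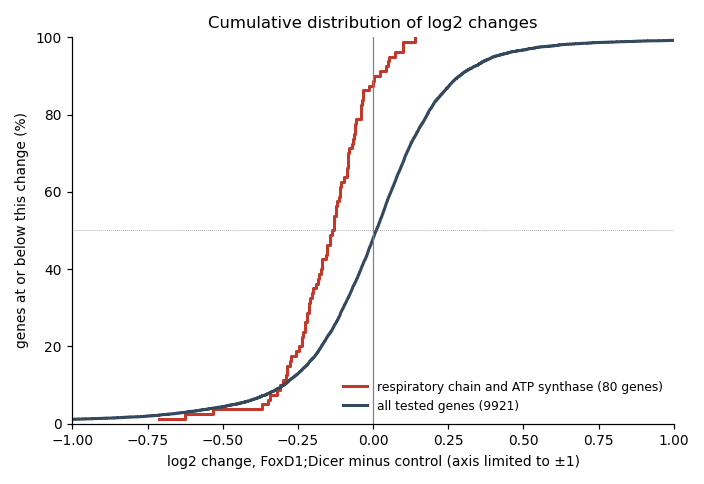
Cumulative share of genes (y axis, percent) at or below a given log2 change (x axis, FoxD1;Dicer minus control, limited to 1 unit on either side) for the 80 respiratory chain and ATP synthase genes and for all 9921 tested genes. The median of the 80 genes is at -0.13 and that of all tested genes at 0.01.

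Promoters of these genes were examined because most of their transcripts had changes of one sign. RefSeq promoter windows (GRCm38.p6, 250 bases before to 50 bases after the start of transcription) were found for 72 of the 88 genes, in 77 windows. Motifs of 3 factors known to act at promoters of mitochondrial genes were searched by exact letters on both strands. CGCATGCG, the centre of the site of nuclear respiratory factor 1 (NRF1) and its own reverse complement, occurred in 11 of the 77 windows (14.3%), against 1.87% of all 32851 windows and 3.71% of the windows of tested genes. CCGGAAG, a core of ETS factors such as GABP (also known as nuclear respiratory factor 2), occurred in 18 windows (23.4%), against 8.86% of all windows and 17.3% of those of tested genes. AAGATGGC, a core of the YY1 site, occurred in 11 windows (14.3%), against 2.75% and 4.33%, and in 9 of these 11 genes it began after the start of transcription. An ETS and a YY1 match overlapped in 0 of the 77 windows.

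The tested genes with any of the motifs, 33 in number, had a median log2 change of -0.17 (28 negative), and the 35 tested genes whose windows held none had a median of -0.105 (31 negative). A match describes the letters and was not tested as a site. The last 120 bases before the start are given for a pair of genes with an NRF1 match and a pair with an ETS match, chosen so that each pair sets a gene of negative change beside one of positive change, with the motif in capitals.
Ndufa8, chr2:36049339-36049458, - strand: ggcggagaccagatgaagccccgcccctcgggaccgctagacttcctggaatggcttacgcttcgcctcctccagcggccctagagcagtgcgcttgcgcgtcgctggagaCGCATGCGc
Atp5g2, chr15:102671048-102671167, - strand: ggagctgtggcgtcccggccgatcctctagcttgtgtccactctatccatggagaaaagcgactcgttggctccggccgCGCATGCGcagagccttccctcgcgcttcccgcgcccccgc
Atp5e, chr2:174464102-174464221, - strand: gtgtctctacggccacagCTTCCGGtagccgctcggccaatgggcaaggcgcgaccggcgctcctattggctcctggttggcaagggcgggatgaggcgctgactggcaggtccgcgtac
Uqcrh, chr4:116075071-116075190, - strand: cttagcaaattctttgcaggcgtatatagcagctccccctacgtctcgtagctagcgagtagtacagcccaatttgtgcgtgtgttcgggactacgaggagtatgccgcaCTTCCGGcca
The log2 changes of these genes were -0.37 ± 0.10 for Ndufa8, 0.10 ± 0.13 for Atp5g2, -0.28 ± 0.11 for Atp5e and 0.05 ± 0.10 for Uqcrh. The positive changes were smaller than their SE. Atp5g2 was at -0.0077 without litter 3 and Uqcrh at -0.03 under median scaling, so these signs were not firm. Since the pairs were chosen by these signs, they do not show how often a motif goes with either direction.

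Complex I is the NADH dehydrogenase that feeds most electrons into the chain. The 42 genes grouped under it by symbol include 7 assembly factors, the pseudogene Ndufs5-ps and Ndufa4, which is found in complex IV. Complex I so grouped had negative changes in 38 of these 42 genes (median -0.15), and 23 were lower in all 3 litters. Its 5 tested core subunits, which form the arm that takes electrons from NADH and passes them on along iron-sulfur clusters (Ndufv1, Ndufv2, Ndufs3, Ndufs7 and Ndufs8), ranged from -0.21 to -0.10, and 4 of them were lower in all 3 litters. The smallest p in the complex was that of Ndufa8, an accessory subunit. Ndufa8 stood at 11.30, 11.28 and 11.24 log2 units in the FoxD1;Dicer pools of litters 1, 2 and 3, against 11.59, 11.67 and 11.67 in the control pools. The groups did not overlap, with an SD of 0.03 in FoxD1;Dicer and 0.05 in control pools, and the change was -0.37 ± 0.10 (SE, n = 3 litters, unadjusted p = 0.0094, adjusted p = 0.11). A dimmer Ndufa8 probe gave -0.35 ± 0.10 (adjusted p = 0.12). Ndufa8 was called with an intensity trend in eBayes (adjusted p = 0.0081), without background correction (0.015) and with the authors' values (0.017).

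Assembly factors, which build complex I without being part of it, were low as well, with negative changes in 6 of 7 (median -0.24). Ndufaf3, which acts with Ndufaf4 in building the arm that carries the core subunits, had the lowest change of all 80 genes. Its levels were 5.98, 5.18 and 6.20 in the FoxD1;Dicer pools, against 6.18, 6.51 and 6.81 in the control pools. The pool of litter 2 was far below the rest and the groups overlapped, since the litter 3 FoxD1;Dicer pool was above the litter 1 control pool. The change was -0.71 ± 0.21 (adjusted p = 0.12), with -0.40 when litter 2 was left out, and Ndufaf3 was called without litter 1 (-0.97, adjusted p = 0.04995) and under median scaling (-0.72, adjusted p = 0.0024). Under median scaling its SE was 0.18, equal to the median SE of all tested genes. That p-value therefore did not weigh the gene's own spread between litters. The Ndufaf3 probe was dim, and its change was -0.32 without background correction and -0.23 with the authors' values. Cox7a1 of complex IV, at -0.46 and -0.41, was lower in those settings, so the rank of Ndufaf3 depended on the processing. Ndufaf1 and Ndufaf4 had changes of -0.34 ± 0.13 and -0.31 ± 0.11, with non-overlapping groups and adjusted p of 0.21 and 0.19. Ndufaf1 was at -0.19 without litter 3, and both probes of Ndufaf4 gave -0.31.

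The accessory subunits of complex I were near 0 in many cases. They were grouped by the letter in their symbol and not by the arm they belong to. Those of the A, S and V series had a median of -0.10 (15 of 16 negative), and those of the B and C series -0.12 (10 of 12 negative). The lowest of the B and C series were Ndufb6 (-0.30 ± 0.11, adjusted p = 0.18) and Ndufb7 (-0.29 ± 0.11, adjusted p = 0.21), each without overlap of the groups. A dimmer Ndufb6 probe gave -0.16. At the upper end, Ndufb11, an X-linked membrane-arm subunit, read 7.05, 6.92 and 7.00 in FoxD1;Dicer pools, against 6.70, 6.67 and 7.18 in control pools. It was higher in litters 1 and 2 and lower in litter 3, with a change of 0.14 ± 0.13 (adjusted p = 0.63). The other X-linked genes among the 80 are Ndufa1 (-0.06 ± 0.10) and Cox7b of complex IV, and for all of them litter 2 sets pools that differ in male tissue against each other. Ndufs5-ps, annotated as a pseudogene of the subunit gene Ndufs5 and uncertain as a single gene because the sequences are alike, had a change of -0.35 ± 0.11 (adjusted p = 0.14). The core subunit gene Ndufs1 and the assembly factor gene Ndufaf6 had no probe detected on any array, so no level is given.

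Complex II, succinate dehydrogenase, links the chain to the tricarboxylic acid cycle. Sdhb, the iron-sulfur subunit, stood at 10.19, 10.21 and 10.33 in FoxD1;Dicer pools, against 10.48, 10.58 and 10.51 in control pools. The groups did not overlap, and the change was -0.28 ± 0.10 (adjusted p = 0.21). A dimmer Sdhb probe gave -0.16. The membrane anchors differed in size, with Sdhd at -0.20 ± 0.11 (adjusted p = 0.37) and Sdhc at -0.07 ± 0.10 (adjusted p = 0.77). Sdhd was lower in all 3 litters (-0.36, -0.07 and -0.18), and its groups overlapped, with -0.12 when litter 1 was left out. Sdhc read 11.41 in both pools of litter 3. The flavoprotein gene Sdha, the catalytic subunit, had no probe detected on any array.

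Complex III, cytochrome bc1, hands electrons from ubiquinol to cytochrome c, and 6 of its 7 tested genes were lower in all 3 litters (median -0.22). Cyc1, the heme-bearing cytochrome c1, stood at 11.08, 11.11 and 11.16 in FoxD1;Dicer pools, against 11.40, 11.52 and 11.38 in control pools. Its groups did not overlap, and the change of -0.32 ± 0.10, or -19.8% on the linear scale, had an unadjusted p of 0.019 and an adjusted p of 0.16. Cyc1 was called with an intensity trend (adjusted p = 0.022), with the authors' values (0.024) and without background correction (0.032). Among the small subunits, Uqcrq (-0.29 ± 0.12) and Uqcr10 (-0.26 ± 0.10) had unadjusted p-values of 0.046 and 0.045. The probe that stood for Uqcrq was dim, and its change was -0.11 with the authors' values. The core proteins Uqcrc1 and Uqcrc2 gave -0.11 and -0.13, again without overlap of the groups.

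One small subunit of complex III ran against the others. Uqcrh, the hinge protein that lies next to cytochrome c1, read 12.80, 12.90 and 12.88 in FoxD1;Dicer pools, against 12.76, 12.81 and 12.86 in control pools. It was the higher one in all 3 litters by small steps while the groups overlapped, with a change of 0.05 ± 0.10 (adjusted p = 0.84), and under median scaling its change was -0.03. The Rieske iron-sulfur gene Uqcrfs1 had no probe detected on any array.

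Complex IV, cytochrome c oxidase, had negative changes in 11 of 12 genes (median -0.18). That median was -0.12 with the authors' values, -0.13 without background correction, -0.12 with no filter on dim probes and -0.21 under median scaling. Cox7a1, the isoform of heart, skeletal muscle and brown fat, stood at 7.70, 7.36 and 7.60 in FoxD1;Dicer pools, against 7.85, 8.17 and 8.52 in control pools. The groups did not overlap, and the litters differed widely, with differences of -0.15, -0.81 and -0.93. The change was -0.63 ± 0.17, or -35.2% on the linear scale (unadjusted p = 0.0073, adjusted p = 0.094). Cox7a1 was called without litter 1 (-0.87, adjusted p = 0.023), under median scaling (0.015), with an intensity trend (0.025) and without background correction (0.040), and not without litter 2 (0.43) or litter 3 (0.18). Under median scaling Cox7a1 had an SE of 0.18, again the median SE of all tested genes. Its widely expressed counterpart Cox7a2 gave -0.04 ± 0.11 (adjusted p = 0.89).

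Cox4i2, the isoform known from lung and from pericytes and vascular smooth muscle, was close to background. It was detected on 1 of 3 FoxD1;Dicer arrays and on all 3 control arrays. Its levels were 5.33, 4.80 and 4.58 in FoxD1;Dicer pools, against 5.55, 5.11 and 5.66 in control pools, and the groups overlapped. The change was -0.53 ± 0.18 (adjusted p = 0.17), -0.26 without litter 3, -0.16 without background correction and -0.11 with the authors' values. Its place below Cox6c, another subunit of the complex, therefore depended on the processing, since Cox6c was at -0.26 without background correction and with the authors' values. Cox4i1, the common isoform, had a change of -0.13 ± 0.11 (adjusted p = 0.56) and was lower in all 3 litters. Another isoform of restricted range, Cox6b2, known from testis, read 7.53, 7.29 and 7.36 in FoxD1;Dicer pools, against 7.79, 7.59 and 7.51 in control pools. It was lower in all 3 litters with slight overlap, at -0.24 ± 0.10 (adjusted p = 0.27, -0.14 with the authors' values), beside -0.14 ± 0.11 (adjusted p = 0.55) for the common Cox6b1.

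**Figure D3:**
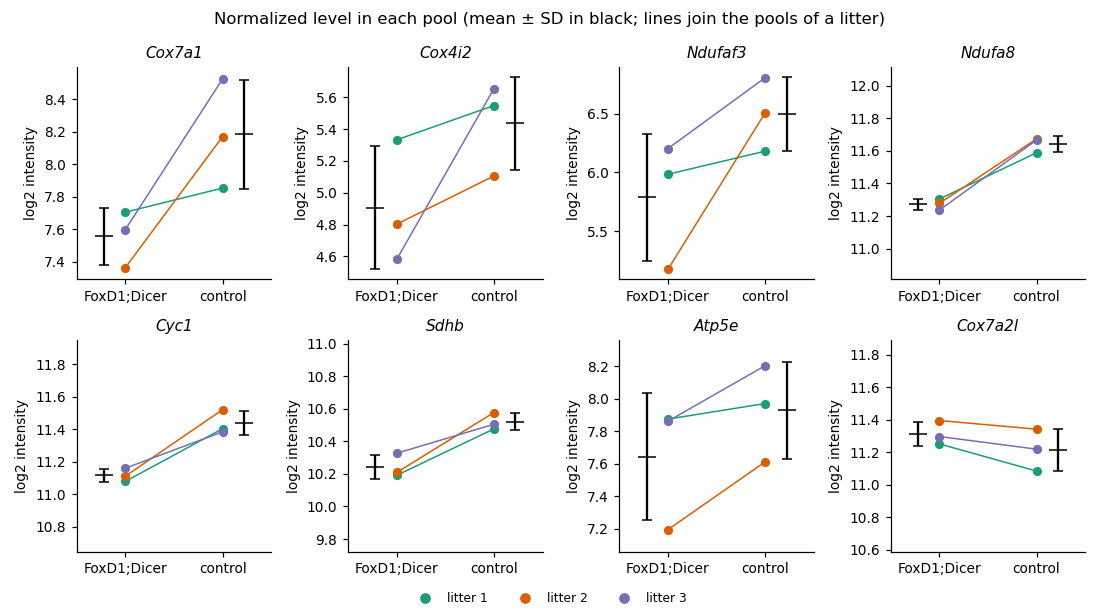
Normalized log2 intensity (y axis) of 8 genes in the FoxD1;Dicer pools (left in each panel) and the control pools (right), with a line for each litter and the mean ± SD of the 3 pools in black. The y axes do not start at 0 and differ between panels. The groups are separate for Cox7a1, Ndufa8, Cyc1 and Sdhb and overlap for Cox4i2, Ndufaf3, Atp5e and Cox7a2l.

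Among the other subunits of complex IV, Cox6c (-0.27 ± 0.12, adjusted p = 0.28) and the X-linked Cox7b (-0.22 ± 0.10, adjusted p = 0.30) were lower in all 3 litters, and the groups did not overlap for either. Cox6c was at -0.17 without litter 2. The change of Cox7b was -0.12 without background correction and -0.096 with the authors' values. Cox6a1, the common isoform of subunit VIa, gave -0.11 ± 0.11 by its brightest probe and 0.02 by the other. Ndufa4, which is named for complex I and is found in complex IV, gave -0.10 ± 0.10 (adjusted p = 0.67). Cox7a2l, which helps join complexes III and IV into supercomplexes, was the exception. It stood at 11.25, 11.40 and 11.30 in FoxD1;Dicer pools, against 11.09, 11.34 and 11.22 in control pools, and was the higher one in all 3 litters, though the groups overlapped and the change of 0.10 ± 0.10 was no larger than its error (adjusted p = 0.65). Under median scaling 0 of the 80 genes were higher in all 3 litters, Cox7a2l and Uqcrh included. The genes Cox6a2, Cox7b2, Cox8b and Cox8c, whose products are known from muscle, testis or brown fat, had no probe detected on any array.

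Complex V, ATP synthase, had the median nearest to 0 of the 5 complexes (-0.09), with 13 of 16 genes negative and 6 lower in all 3 litters. That median was -0.05 without litter 3 and -0.14 under median scaling, and a difference between complexes was not tested. The catalytic β subunit gene Atp5b read 14.15, 14.30 and 14.22 in FoxD1;Dicer pools, against 14.21, 14.21 and 14.29 in control pools. These values overlapped throughout, with a change of -0.01 ± 0.10 (adjusted p = 0.96), and Atp5b is named here for its role and not by its values. The α, γ and δ subunits of the same F1 part, Atp5a1, Atp5c1 and Atp5d, gave -0.12, -0.07 and -0.14. The lowest of the complex was Atp5e, the ε subunit of the central stalk, at 7.88, 7.20 and 7.86 in FoxD1;Dicer pools, against 7.97, 7.61 and 8.20 in control pools. It was lower in all 3 litters, the litter 2 pools were low in both groups, and the change was -0.28 ± 0.11 (adjusted p = 0.23, -0.18 with the authors' values).

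The rotating ring of c subunits is encoded by several genes for an identical mature protein. Atp5g3 gave -0.12 ± 0.10 (adjusted p = 0.57) with lower values in all 3 litters. Atp5g2 read 10.73, 10.76 and 10.85 in FoxD1;Dicer pools, against 10.89, 10.62 and 10.54 in control pools. Its sign differed between litters (-0.16, 0.15 and 0.31), and the change of 0.10 ± 0.13 (adjusted p = 0.72) turned to -0.0077 without litter 3. Of the 4 genes of the side stalk that holds the head still, Atp5h and Atp5o were negative (-0.08 and -0.09) and Atp5j and Atp5pb positive (0.05 and 0.02, with Atp5pb at -0.030 under median scaling). The 5 membrane subunits ranged from -0.17 to -0.03.

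Of the 110 tested probes of these genes, 30 were not the brightest of their gene and so did not stand for it. Of these 30 probes, 24 (80%) had a negative change, against 47.2% of all tested probes. They share the RNA of the same pools. Among 23 genes with more than 1 tested probe, 16 had the same sign on all of them, and the median gap between the lowest and highest probe was 0.08. Probes of 3 genes differed in sign by more than 0.3 units. Atp5pb, the b subunit of the side stalk, ranged from -0.13 to 0.26. Ndufab1, the mitochondrial acyl carrier protein, gave -0.21 ± 0.11 on its brightest probe (-0.13 without litter 1) and ranged from -0.27 to 0.13 over 4 probes, each designed against a different transcript record. Ndufv3, a small subunit of the NADH-binding module, ranged from -0.31 to 0.00, and its brightest probe was at -0.087 without litter 3.

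Other gene lists of mitochondrial function were set beside the respiratory chain. Over all tested genes, 3.15% were called lower and 2.41% higher, and 47.9% had a negative change. The tricarboxylic acid cycle, which supplies NADH and succinate to the chain, had negative changes in 12 of 15 tested genes (median -0.17), and 1 was called. Ogdh, a subunit of the 2-oxoglutarate dehydrogenase complex, stood at 7.999, 8.18 and 8.02 in FoxD1;Dicer pools, against 8.40, 8.72 and 8.73 in control pools, and fell with a log2 change of -0.55 ± 0.11 (adjusted p = 0.044). That call was lost without litter 1, 2 or 3 (adjusted p = 0.071, 0.26 and 0.10). Among 29 assembly factors of complexes II to V (median -0.12, 22 negative), Cox20, a chaperone of the complex IV subunit COX2, was called. Its levels were 8.996, 8.81 and 8.88 in FoxD1;Dicer pools, against 9.61, 9.38 and 9.32 in control pools. Cox20 fell with a log2 change of -0.54 ± 0.10 (adjusted p = 0.036), and the call was lost without litter 1 (0.12) or litter 2 (0.25).

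Regulators of mitochondrial biogenesis showed 1 call among 11 tested genes (median -0.07, 6 negative). Esrrb, an orphan nuclear receptor of the estrogen-related family, stood at 5.59, 4.88 and 5.20 in FoxD1;Dicer pools, where 2 of 3 arrays detected it, against 6.72, 7.22 and 7.73 in control pools. The groups were far apart, with a log2 change of -2.001 ± 0.26 (adjusted p = 0.0090, 0.12 without litter 2). The size of this fall was -0.73 with the authors' values and -0.96 without background correction. The coactivator gene Ppargc1a, named for its known role in mitochondrial biogenesis, gave -0.39 ± 0.14 (adjusted p = 0.18).

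The remaining lists held 0 calls. Beside their counts at an unadjusted p under 0.05 stand shares over all tested genes of 10.2% lower and 9.99% higher. Mitochondrial ribosomal proteins had a median of -0.08, with 44 of 72 genes negative, 5 lower and 2 higher at an unadjusted p under 0.05, and Mrps21 had the smallest p of the list (-0.41 ± 0.11, adjusted p = 0.10). Of 8 other complex I assembly factors (median -0.17, 6 negative, 2 lower at an unadjusted p under 0.05), Ecsit had the smallest p (-0.38 ± 0.10, adjusted p = 0.095). The 7 tested subunits encoded by mitochondrial DNA had a median of 0.00, with 3 negative and 0 at an unadjusted p under 0.05. Their medians within litters 1, 2 and 3 were -0.01, -0.07 and -0.23, so the litters differed. ND1 of complex I gave -0.21 ± 0.11 (adjusted p = 0.36, -0.12 without litter 3). Genes of mitochondrial DNA maintenance and transcription had a median of -0.03 (7 of 14 negative, 1 lower and 1 higher at an unadjusted p under 0.05). That list also holds Gfm1, a mitochondrial translation elongation factor, which had its smallest p (-0.41 ± 0.12, adjusted p = 0.13). Gfm1 was at -0.18 with the authors' values and at -0.12 with the mean of its tested probes, so its probes differed. Porins, import and chaperone genes likewise had a median of -0.03 (11 of 18 negative, 1 lower at an unadjusted p under 0.05), and Timm17b, a subunit of the inner membrane translocase, gave -0.28 ± 0.11 (adjusted p = 0.23, -0.062 with the authors' values).

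Cytochrome c and coenzyme Q synthesis, which supply the mobile carriers of the chain, had a median of -0.13 (7 of 11 negative, 1 lower at an unadjusted p under 0.05), and Coq9 had the smallest p (-0.36 ± 0.13, adjusted p = 0.19, -0.22 without litter 3). Antioxidants of mitochondria had a median of -0.14 (4 of 7 negative, 2 lower at an unadjusted p under 0.05), with Sod2 at -0.32 ± 0.11 (adjusted p = 0.18). The 3 tested genes of the ADP/ATP and phosphate carriers and the inhibitor factor were negative (median -0.14, 0 at an unadjusted p under 0.05), with the phosphate carrier Slc25a3 at -0.17 ± 0.10 (adjusted p = 0.41).

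**Figure D4:**
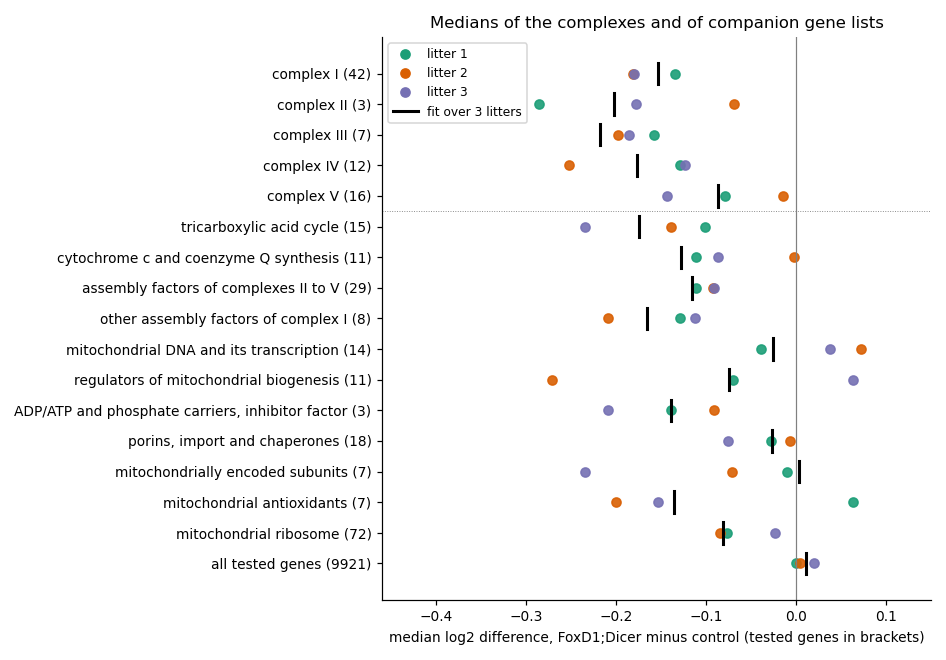
Median log2 difference (x axis, FoxD1;Dicer minus control) of the tested genes of each complex and of each companion list, with a point for every litter, a black bar for the fit over the 3 litters and the number of tested genes in brackets. All 5 complexes have medians below 0 in each of the 3 litters, while the lists of mitochondrial DNA, of biogenesis regulators and of antioxidants have litters on both sides of 0.

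Markers of several cell types moved with the genotype, and their part in the lower respiratory chain transcripts was not tested. The mean level of 14 proximal tubule markers was 7.24 to 7.69 in FoxD1;Dicer pools, against 8.28 to 9.02 in control pools, and 12 of the 14 were called lower. For 15 markers of stroma, pericytes and mesangium it was 7.20 to 7.75 in FoxD1;Dicer pools, against 7.95 to 8.13 in control pools. Of these 15, 12 had a negative change and 7 were called lower. The 13 macrophage and leukocyte markers stood at 7.60 to 7.69 in FoxD1;Dicer pools, against 6.31 to 6.55 in control pools, and all 13 were called higher. Of 8 loop of Henle and distal tubule markers 1 was called lower, as was 1 of 8 collecting duct markers. Among 9 nephron progenitor markers 1 was called lower and 2 higher. For 3 podocyte and 6 endothelial markers there were 0 calls. Over all tested genes 3.15% were called lower and 2.41% higher. Markers of the tissues in which Cox7a1 is known to be abundant were mostly undetected in both groups. Of 12 striated muscle markers 6 were detected on no array and 0 on all 6, and the 4 that were tested had a mean level of 4.89 to 5.66 in FoxD1;Dicer pools, against 5.03 to 5.16 in control pools. The brown fat markers Ucp1, Cidea and Adipoq were detected on no array, and Cpt1b, which brown fat and muscle share with other tissues, gave -0.47 ± 0.16 (adjusted p = 0.17). Pparg, the other listed brown fat marker that was tested, gave 0.21 ± 0.22 (adjusted p = 0.65).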

How the data were processed

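RNA of 6 pools of E18.5 kidneys (3 litters, 1 FoxD1;Dicer and 1 control pool each, 2 embryos a pool) was hybridised to 1-colour Illumina arrays. One deposited table gives, per its header, the raw linear intensity of every probe on every array together with a detection p-value, before any background correction or normalization by the authors. A second table holds the authors' log2 values, made with lumi, whose steps are not given in the sources used here. They ranked the probes of each array as the intensity did (Spearman 1) and were used as an alternative. Of 45281 rows, 8 were damaged and left out. Of 45273 probes, 34877 had 1 gene symbol, 18 several and 10378 none. Symbols come from the platform annotation, and genes that it does not name were not analysed here.

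The neqc function (offset 16, background from the detection p-values) corrected the background, quantile normalized the arrays and took log2, in limma 3.58.1 under R 4.3.3. Probes with a detection p under 0.01 on at least 3 of 6 arrays were tested (16899 probes, 9921 genes), and a gene is represented by its brightest tested probe. lmFit and eBayes fitted genotype with litter as a block, as in the study's methods, with 2 residual degrees of freedom and 4.76 from the prior. Adjusted p-values are Benjamini-Hochberg over tested probes, called at 0.05. The offset shrinks changes of dim probes. Precision is limited by the number of arrays, with a median SE of 0.11 for these genes. The script was tested on simulated data.

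The pairing comes from the labels, which give the litter. Deviations from the group means of pools of one litter correlated at 0.19, 0.18 and 0.14 over tested probes. Pools came from different embryos, and their spread includes biological variation. Genes named are, in each complex, those with the lowest change, the highest change and the smallest p, all tested isoforms, Sdh genes and Cyc1, genes whose probes disagree in sign by more than 0.3, and the called genes or the one with the smallest p in each companion list. Others were named for their role, or after their values were seen. The genes, lists and tests were chosen with earlier results of these data known. Alternatives were median scaling, no background correction, the authors' values, other filters on dim probes, the mean of a gene's probes, an intensity trend, no block, each litter left out, subunits alone and the study's threshold of a B-statistic above 0. Figures and motif searches used Python 3.11.15 and matplotlib 3.10.9.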

Additional observations from a re-analysis of the deposited data

How the results depend on the processing

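The negative median of these genes held under every alternative run, at -0.19 under median scaling (complex I -0.19, complex III -0.27), and 65 to 75 genes were negative over the settings that tested 80. The median of complex III was -0.15 without background correction, -0.16 with the authors' values and -0.17 with no filter on dim probes. The number called lower was 2 under median scaling (Cox7a1, Ndufaf3) and 5 without background correction (Cox7a1, Cyc1, Ndufa8, Ndufb6, Ndufs5-ps). It was 5 with the authors' values (Uqcr11 in place of Cox7a1) and 6 with an intensity trend (Uqcr10 beside those 5 of the uncorrected values). With 1 litter left out it was 0 to 2, and by the B-statistic it was 0. Calls in either direction over all 9921 tested genes rose as well, from 552 to 655, 807, 674 and 865 in the first 4 of these settings. Of those calls 58.5%, 56.8%, 56.2% and 57.0% were lower, against 56.7% of the 552. Under median scaling eBayes gave Cox7a1 and Ndufaf3 the same SE, 0.18, which was also the median SE of all tested genes. With no replicate block (litters not paired), 0 of the 80 genes were called (14 at an unadjusted p under 0.05), and no call of a gene named by the rule changed. Over all tested genes 528 were then called, against 552 with the block. The number higher in every litter was 0 under median scaling, 1 with the authors' values, 5 with no filter and 5 to 6 with 1 litter left out, when fewer litters have to concur, and complex I then had medians of -0.14 to -0.12. Of the 80 genes, 19 had another sign than reported under at least 1 alternative (4 under median scaling, 2 with the authors' values, 3 with the mean of a gene's probes, and 4, 5 and 8 without litters 1, 2 and 3, each then within 0.11 of 0). Among the genes named by the rule these were Atp5pb (-0.030 under median scaling, -0.028 to 0.12 with 1 litter left out), Uqcrh (-0.032 under median scaling), Cox7a2 (-0.14 to 0.025 with 1 litter left out, positive without litter 2) and Atp5g2 (-0.0077 to 0.23 with 1 litter left out, negative without litter 3). With no filter Esrrb, Cox20 and Ogdh were not called (adjusted p = 0.073, 0.061 and 0.088), where 19054 genes were tested. The cause of these differences was not tested. Changes near the median SE of 0.11 could not be told from 0 for single genes at 3 litters.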
